A study of Mus musculus with 8 samples.

Results

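The COPII coat builds the vesicles that carry newly made proteins out of the endoplasmic reticulum. Its genes were followed here in mouse B cells sorted by whether they expressed interleukin-10 (IL-10). The genes were the 10 listed coat subunits and paralogs, Sar1a, Sar1b, Sec23a, Sec23b, Sec24a, Sec24b, Sec24c, Sec24d, Sec13 and Sec31a. They were found by matching the Ensembl identifiers of the expression table to the GENCODE M21 annotation of GRCm38, and each symbol had 1 row, 10 of 26589 genes in all.

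Of the 8 libraries 4 came from IL-10+ cells and 4 from IL-10- cells. All cells were B cells from spleens of mice of the IL-10-eGFP Tiger strain, where a green fluorescent protein reports the activity of Il10. All were cultured with lipopolysaccharide (LPS, a bacterial activator of B cells) at 3 µg/ml for 48 h before sorting, so both groups had been activated, and they were then separated by the reporter. A tag in the labels calls the samples untreated, against the protocols, which were followed. No source used here says how old the mice were, how many stand behind a library or what a replicate number marks, so the p-values rest on a spread of libraries that may be technical. The libraries held 27380394 to 29968281 reads as recovered from the deposited FPKM values (fragments scaled to gene length and library depth). Il10 itself averaged 36.9 ± 5.32 FPKM where the reporter was on and 3.17 ± 1.48 FPKM where it was off (SD, n = 4), the direction the labels give. Of the B cell genes, Cd79a was at 451.9 to 676.0 FPKM and Cd79b at 279.2 to 422.0 FPKM over all libraries. Neither passed unless the replicate number was a block in the fit, where 53.7% of all tested genes passed. With the block Cd79a was higher (log2 change 0.16, adjusted p = 0.0120) and Cd79b lower (log2 change -0.18, adjusted p = 0.0197) in IL-10+ cells. Ms4a1, Cd22 and Pax5 were present at 63.4 FPKM or more in every library and fell in IL-10+ cells (adjusted p of 2.13e-04, 0.00413 and 0.00209 by limma). The T cell list summed to at most 2.32 FPKM in a library, macrophage genes to at most 0.758, natural killer genes to at most 0.561, neutrophil genes to at most 1.37 and erythroid genes to at most 0.601. Dendritic cell genes summed to 7.73 to 11.6 FPKM with and 9.73 to 15.1 FPKM without IL-10, nearly all of it from Flt3 (log2 change -0.34, adjusted p = 0.157, or 6.59e-04 with the block), and the highest value of any other dendritic gene was 0.262 FPKM, of Xcr1. In both groups replicates 1 and 2 stood apart from 3 and 4 across genes.

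COPII assembles in layers. The small GTPase Sar1 is loaded with GTP at the membrane of the endoplasmic reticulum, inserts into it and recruits the inner coat, a dimer of Sec23, which activates the GTPase, and Sec24, which binds cargo. The outer cage of Sec13 and Sec31 then bends the membrane into a vesicle. Sec24 has paralogs that differ in the cargo signals they bind, with Sec24a and Sec24b forming one subfamily and Sec24c and Sec24d the other. B cells that turn into antibody-secreting cells are known to enlarge this export route.

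Coat genes were mostly higher in IL-10+ cells, but by unequal amounts. Of the 10 genes, 7 rose and none fell (limma, adjusted p under 0.05), where 10.6% of the 11329 genes tested rose and 9.18% fell (19.7% in either direction). Both Sec24d and Sec24a rose at least 2-fold, as 4.42% of the tested genes did. Sec24d rose most, 6.18-fold as a ratio of mean FPKM, then Sec24a (2.59-fold), Sec23b (1.83-fold) and Sec23a (1.63-fold). Sec24c, Sec31a and Sar1b rose 1.29-fold to 1.30-fold. Sar1a and Sec13 passed when the replicate number was a block in the fit, and Sec24b passed in neither fit. With the block 9 of 10 rose, where 20.4% of the tested genes rose and 33.3% fell (53.7% in all). The median log2 change of FPKM + 1 was 0.37 over the 10 genes and -0.06 over all genes tested. In 8 of the 10 all IL-10+ values lay above all IL-10- values, which held for 12.2% of the tested genes, while 13.0% lay wholly lower and 25.2% did not overlap in either direction. In 9 of the 10 the IL-10+ library was the higher one in every replicate number, against 24.3% of the tested genes. Within replicates 1 and 2 alone Sar1b (adjusted p = 0.0885), Sec24c (0.0685) and Sec31a (0.0688) did not pass, and within replicates 3 and 4 alone Sec13 (0.0129) and Sar1a (0.0317) did. Bulk libraries cannot tell a change of RNA per cell from a change in the share of cells that make it. All 80 values of the coat genes rested on whole recovered reads, from 453 to 8864 per gene and library.

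**Figure D1:**
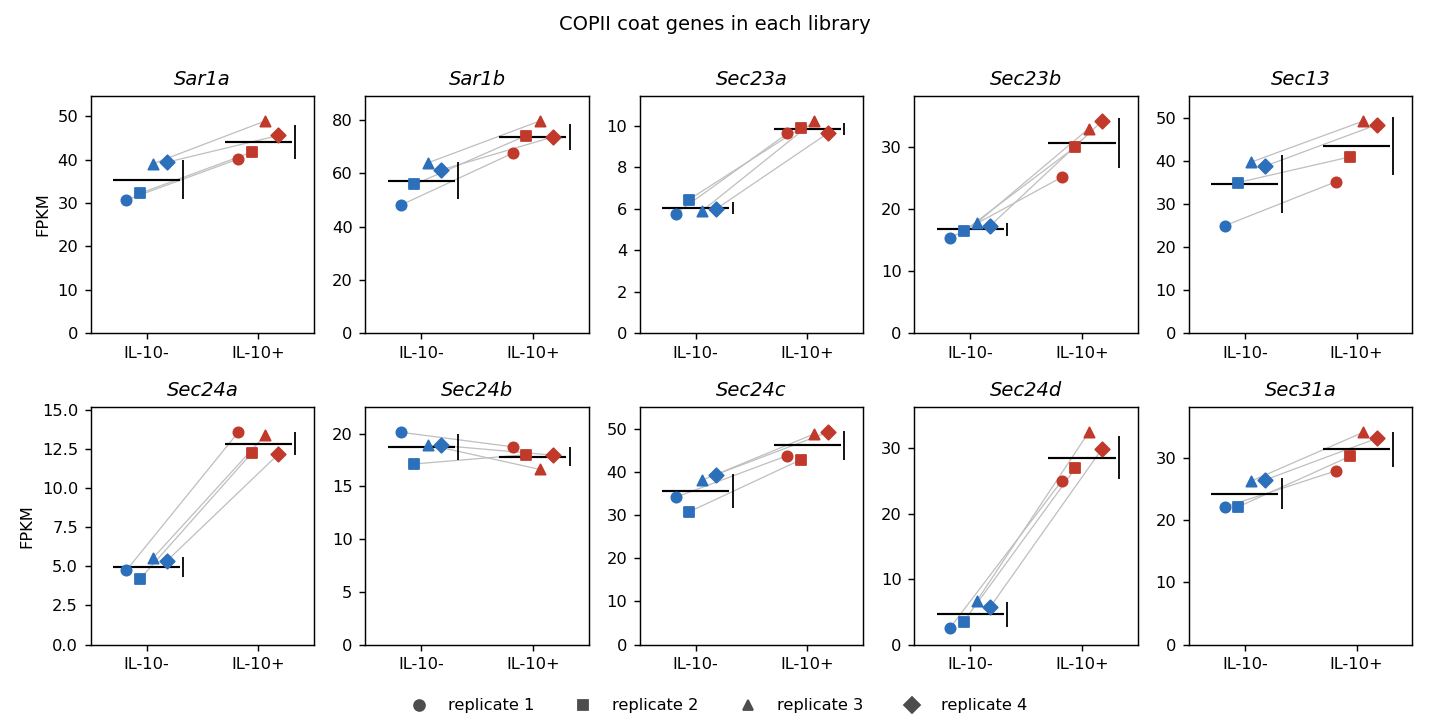
FPKM of each COPII coat gene (vertical axes from 0, 1 panel a gene) in the 4 IL-10- (blue) and 4 IL-10+ (red) libraries; symbols give the replicate number, grey lines join libraries of the same number, black bars give the group mean and SD. Sec24d lies between 2.56 and 6.69 FPKM on the left and between 25.0 and 32.4 FPKM on the right, whereas the Sec24b ranges overlap.

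Sar1 starts the coat. By FPKM, Sar1b (ENSMUSG00000020386, chromosome 11, 51763687 to 51791925 on the plus strand) was the most abundant coat gene in both groups. FPKM divides by exon length, 1255 bases for Sar1b and 3740 for Sar1a. By recovered reads Sar1b stood below Sar1a, at 2321 to 2883 against 4111 to 5278 in IL-10+ libraries. Sar1b measured 67.5, 74.2, 79.6 and 73.6 FPKM in replicates 1 to 4 of the IL-10+ cells, against 48.1, 55.8, 63.9 and 61.3 FPKM in the same replicates of the IL-10- cells. Every IL-10+ value lay above every IL-10- value, and the lowest library of each group was replicate 1. Its change in log2(FPKM + 1) came to 0.36 (SE 0.0985, adjusted p = 0.0323; 0.00119 with the replicate block). Without the block the call ended without IL-10+ replicate 2, 3 or 4 or IL-10- replicate 2 (adjusted p of 0.0706 to 0.0934).

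Sar1a (ENSMUSG00000020088, chromosome 10, 61680299 to 61693297), its close paralog, measured 40.1, 41.7, 48.9 and 45.6 FPKM in replicates 1 to 4 of the IL-10+ cells, against 30.7, 32.2, 39.1 and 39.4 FPKM in the same replicates of the IL-10- cells. The groups did not overlap, with IL-10+ replicate 1 only just above IL-10- replicate 4. The log2 change was 0.31 (SE 0.105, adjusted p = 0.0693), and it passed with the block (adjusted p = 0.00119). Sar1a made up 37.4% ± 1.01 of summed Sar1 FPKM with IL-10 and 38.2% ± 1.16 without (SD, n = 4), shares that rest on the exon lengths. The log2 ratio of Sar1a to Sar1b differed between the groups by -0.05 (exact two-sided permutation p = 0.343, also 0.343 adjusted over the 8 paralog ratios tested), with differences of -0.105 to 0.00593 in the 4 replicate numbers.

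Both Sec23 paralogs rose, with larger folds than Sar1, a difference that was not tested. Sec23b (ENSMUSG00000027429, chromosome 2, 144556229 to 144590749) measured 25.1, 29.9, 32.9 and 34.1 FPKM in replicates 1 to 4 of the IL-10+ cells, against 15.3, 16.4, 17.8 and 17.3 FPKM in the same replicates of the IL-10- cells. Even IL-10+ replicate 1, the lowest of its group, was above all IL-10- libraries. Its log2 change was 0.83 (SE 0.101, adjusted p = 6.11e-04). Loss of SEC23B in people causes a congenital anaemia, while in mice it is known for a defect of secretory glands.

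Sec23a (ENSMUSG00000020986, chromosome 12, 58958383 to 59012017 on the minus strand) was the scarcer of the pair and, in IL-10+ cells, the least abundant of all coat genes. It gave 9.63, 9.89, 10.2 and 9.63 FPKM in replicates 1 to 4 of the IL-10+ cells, against 5.76, 6.44, 5.91 and 5.98 FPKM in the same replicates of the IL-10- cells, with little spread within either group. Its log2 change was 0.63 (SE 0.0561, adjusted p = 1.07e-04). An antisense gene, Gm17529, overlaps 8.91% of the exon bases of Sec23a and stood at 0.0340 to 0.162 FPKM. Sec23a gave 24.6% ± 2.40 of summed Sec23 FPKM in IL-10+ cells (SD, n = 4) and 25.0% to 28.2% in IL-10- libraries, and the log2 ratio of Sec23a to Sec23b differed by -0.15 (exact two-sided permutation p = 0.200, adjusted p = 0.229 over the 8 ratios), lower in IL-10+ cells in 3 of the 4 replicate numbers. Each Sec23 gene rose, and a change in their balance was not detected with 4 libraries a group.

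**Figure D2:**
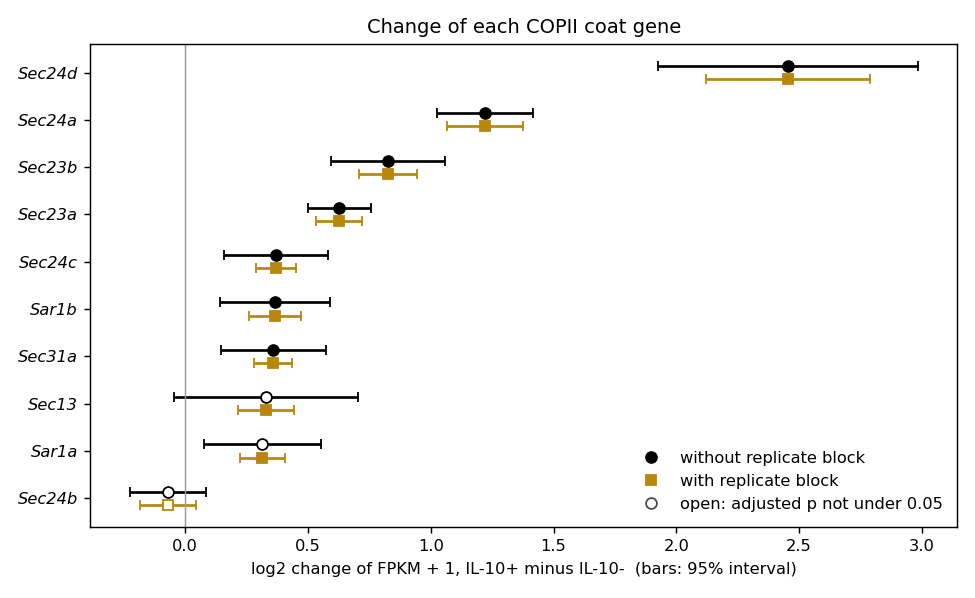
log2 change of FPKM + 1 (IL-10+ minus IL-10-) of the 10 COPII coat genes with 95% intervals, from the fit without (black circles) and with (gold squares) the replicate number as a block; open symbols did not pass an adjusted p of 0.05. Sec24d lies farthest right at 2.46, and Sec24b alone is open in both fits.

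Sec24d had the largest change of the coat. It lies on the plus strand of chromosome 3 (ENSMUSG00000039234, 123267455 to 123365641) and gave 25.0, 26.9, 32.4 and 29.9 FPKM in IL-10+ replicates 1 to 4. The values of IL-10- replicates 1 to 4 were 2.56, 3.47, 6.69 and 5.77 FPKM, from 453 to 1191 recovered reads. The highest IL-10- library was thus far below the lowest IL-10+ library, and within IL-10- cells replicates 3 and 4 were above 1 and 2. The log2 change was 2.46 (SE 0.232, adjusted p = 1.44e-04), the 30th largest rise among 11329 genes. The ratio within a replicate number was 9.77, 7.76, 4.84 and 5.18 for numbers 1 to 4.

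Plasmablast genes were higher in the same group as Sec24d. Prdm1, the regulator of plasma cell formation, stood at 4.22, 5.27, 9.56 and 8.49 FPKM in IL-10- replicates 1 to 4 and at 49.7 to 53.4 FPKM in IL-10+ libraries. The 6 listed plasmablast genes, Prdm1, Sdc1, Jchain, Mzb1, Tnfrsf17 and Irf4, summed to 1155 to 1168 FPKM with and 280.1 to 383 FPKM without IL-10. All 5 of them that were tested rose, against 10.6% of all tested genes, and Tnfrsf17 was listed at 0 in every IL-10- library and at 0.0850 to 0.538 FPKM where IL-10 was expressed. Within IL-10- cells Prdm1 was highest in replicates 3 and 4, like Sec24d and every other coat gene except Sec23a and Sec24b. So were Mzb1 (209.3, 249.2, 306.0 and 296.2 FPKM in replicates 1 to 4) and Sdc1 (1.03, 1.23, 2.43 and 2.65 FPKM). Jchain (11.1, 10.4, 11.8 and 8.58 FPKM in replicates 1 to 4) and Irf4 (54.4, 63.8, 53.2 and 62.6 FPKM) did not follow that order. In IL-10+ replicates 1 to 4 Prdm1 stood at 53.4, 50.4, 50.8 and 49.7 FPKM. Sec24d, unlike Prdm1, was again highest in replicates 3 and 4 there. The part of plasmablasts in the coat gene changes was not tested.

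Sec24a (ENSMUSG00000036391, chromosome 11, 51692264 to 51763634 on the minus strand) had the next largest change. It measured 13.5, 12.2, 13.4 and 12.2 FPKM in replicates 1 to 4 of the IL-10+ cells, against 4.74, 4.18, 5.54 and 5.33 FPKM in the same replicates of the IL-10- cells, and no library came near the other group. Its log2 change was 1.22 (SE 0.0859, adjusted p = 4.16e-05). Loss of Sec24a in mice is known to lower plasma cholesterol by holding back a secreted regulator of the low-density lipoprotein receptor. Sec24a and Sar1b lie on opposite strands of chromosome 11 with 52 bases between their annotated bounds, where the bound of Sec24a is that of a retained-intron transcript. The ratio within a replicate number was 2.28 to 2.93 for Sec24a and at most 1.40 for Sar1b, and a difference between these neighbours was not tested.

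Sec24c (ENSMUSG00000039367, chromosome 14, 20674308 to 20694852 on the plus strand) was the most abundant Sec24 gene. It gave 43.8, 42.8, 48.8 and 49.2 FPKM in replicates 1 to 4 of the IL-10+ cells, against 34.1, 30.7, 38.1 and 39.3 FPKM in the same replicates of the IL-10- cells. The groups did not overlap, but replicates 3 and 4 were the higher ones in both. The log2 change was 0.37 (SE 0.0930, adjusted p = 0.0240; 4.92e-04 with the block). Without the block the call ended without IL-10+ replicate 3 or 4 or IL-10- replicate 1 or 2 (adjusted p of 0.0523 to 0.0732). An antisense gene, 6230400D17Rik, overlaps 3.40% of its exon bases and stood at 1.36 to 2.51 FPKM.

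Sec24b (ENSMUSG00000001052, chromosome 3, 129982759 to 130061553 on the minus strand) was the exception. It measured 18.7, 18.0, 16.6 and 18.0 FPKM in replicates 1 to 4 of the IL-10+ cells, against 20.1, 17.1, 18.9 and 18.9 FPKM in the same replicates of the IL-10- cells. The ranges overlapped, and only in replicate 2 was the IL-10+ library the higher one. The log2 change was -0.07 (SE 0.0683, adjusted p = 0.526), with a 95% interval of -0.23 to 0.09, and with the block the interval was -0.18 to 0.04 (adjusted p = 0.247). Sec24b is known for sorting a planar polarity protein during closure of the neural tube.

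The makeup of Sec24 differed as well. Sec24d made up 4.16% to 9.66% of the summed Sec24 FPKM without IL-10 and 24.7% to 29.2% with it. Sec24a went from 7.73% ± 0.198 to 12.2% ± 0.934, Sec24b from 29.5% ± 2.70 to 17.0% ± 1.63 and Sec24c from 55.6% ± 0.771 to 43.8% ± 0.948 (SD, n = 4). For each of the 4 paralogs the shares did not overlap between the groups. In order of mean FPKM, Sec24c, Sec24b, Sec24a and Sec24d in IL-10- cells became Sec24c, Sec24d, Sec24b and Sec24a in IL-10+ cells. In IL-10- cells the FPKM ranges of Sec24a and Sec24d overlapped, while no neighbours in the IL-10+ order did. Order and shares rest on the exon lengths, 10683 bases for Sec24a and 6020 to 6325 for the other paralogs. By recovered reads Sec24a lay above Sec24b in IL-10+ libraries (3636 to 4120 against 2887 to 3089). It also lay above Sec24d in IL-10- libraries (1272 to 1706 against 453 to 1191).

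Ratios of paralogs within a library do not depend on how libraries are scaled, and all 6 ratios among the Sec24 genes differed between the groups. The ratio of Sec24d to Sec24c was 0.571 to 0.664 with IL-10 but 0.0750 to 0.176 without, a 5.08-fold difference of geometric means. That of Sec24d to Sec24b was 6.95-fold higher and that of Sec24d to Sec24a 2.54-fold higher in IL-10+ cells. Within the subfamily of Sec24a and Sec24b, the ratio of Sec24b to Sec24a fell from 3.42 to 4.24 in IL-10- libraries to 1.24 to 1.48 in IL-10+ libraries. The ratio of Sec24c to Sec24a was 2.00-fold lower and that of Sec24c to Sec24b 1.37-fold higher in IL-10+ cells. Each gave p = 0.0286 in the exact two-sided permutation test, the smallest that 4 against 4 libraries allow, with an adjusted p = 0.0381 over the 8 ratios. The 6 ratios are built from 4 genes and are not independent. The test took the libraries as unpaired, and within replicate numbers an exact test cannot go below 0.125. Each ratio went the same way in 4 of 4 replicate numbers.

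**Figure D3:**
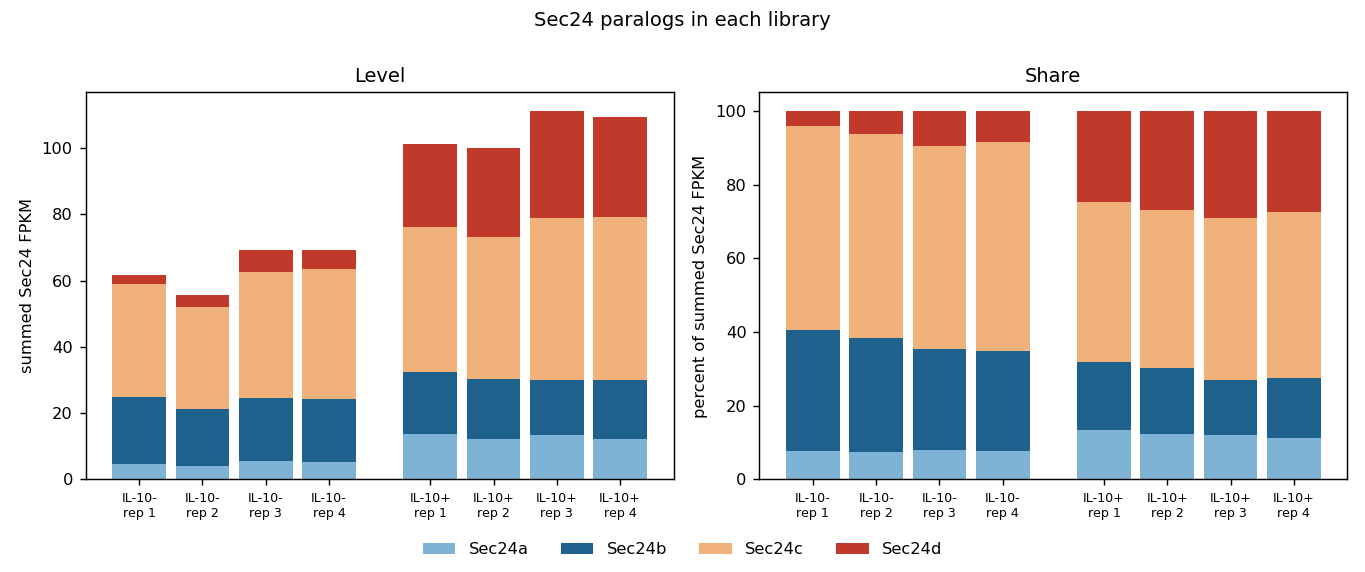
Stacked FPKM of the 4 Sec24 paralogs in each library (left, summed FPKM) and their shares of that sum (right, percent), IL-10- libraries first. The Sec24d segment is 4.16% to 9.66% of the sum in IL-10- and 24.7% to 29.2% in IL-10+ libraries.

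Summed over paralogs, Sec24 and Sec23 moved by similar factors. Summed Sec24 came to 105.3 ± 5.67 FPKM with IL-10 and 63.9 ± 6.69 FPKM without (SD, n = 4), 1.65-fold, and Sec24d made up 57.8% of the gain. Without Sec24d the sum was 76.8 ± 2.88 against 59.3 ± 5.22 FPKM, 1.30-fold. Summed Sec23 was 40.3 ± 4.12 against 22.7 ± 1.14 FPKM, 1.78-fold. The quotient of summed Sec24 over summed Sec23 overlapped between the groups, with means of 2.62 ± 0.194 with IL-10 and 2.81 ± 0.256 without. These sums and quotients were not tested.

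The promoters of the coat genes were searched for letters that factors of the unfolded protein response and the CREB3 family are known to bind. RefSeq start sites of GRCm38.p6 gave 12 windows, from 250 bases before to 50 bases after a start, and all 10 genes had at least 1. The patterns were searched on both strands. The first was the endoplasmic reticulum stress element (ERSE), and the second the core of the unfolded protein response element, TGACGTGG. The others were CCACGT and TGACGT, a part of the cAMP response element, both of which overlap the core where it occurs. The core was found in 2 of 10 genes, Sec24d and Sec23a, and in 0.676% of all 32851 windows of this length. The stress element was in none of the 10 (0.119% of all windows). CCACGT was in 7 of 10 genes, against 8.31% of all windows, and TGACGT in 6 of 10, against 7.51%. Among windows of tested genes the shares were higher, 11.7% for CCACGT, 12.6% for TGACGT, 0.919% for the core and 0.153% for the stress element. The 10 genes had 12 windows, so a count of genes is not the same measure as a share of windows.

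Shown are the windows of Sec24d and Sec23a, which hold the core, and of Sec24c, which holds ACGTGG without the full core, each read from 250 bases before the RefSeq start on the gene's strand and ending no later than 30 bases past the first annotated start. Capitals mark TGACGTGG in Sec24d and Sec23a and ACGTGG, the reverse complement of CCACGT, in Sec24c.
Sec24d, chr3:123267246-123267484, plus strand: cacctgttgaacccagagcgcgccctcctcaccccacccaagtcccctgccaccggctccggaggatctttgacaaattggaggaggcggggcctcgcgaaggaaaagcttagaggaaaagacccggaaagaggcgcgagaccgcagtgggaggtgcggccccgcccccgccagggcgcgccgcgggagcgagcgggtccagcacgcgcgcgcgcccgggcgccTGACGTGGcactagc
Sec23a, chr12:59011988-59012267, minus strand: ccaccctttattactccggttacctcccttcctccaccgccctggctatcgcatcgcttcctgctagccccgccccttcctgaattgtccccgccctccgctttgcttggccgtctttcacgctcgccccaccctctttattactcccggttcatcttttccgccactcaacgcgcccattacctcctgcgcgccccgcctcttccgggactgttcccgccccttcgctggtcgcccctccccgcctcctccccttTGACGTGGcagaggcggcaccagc
Sec24c, chr14:20674071-20674337, plus strand: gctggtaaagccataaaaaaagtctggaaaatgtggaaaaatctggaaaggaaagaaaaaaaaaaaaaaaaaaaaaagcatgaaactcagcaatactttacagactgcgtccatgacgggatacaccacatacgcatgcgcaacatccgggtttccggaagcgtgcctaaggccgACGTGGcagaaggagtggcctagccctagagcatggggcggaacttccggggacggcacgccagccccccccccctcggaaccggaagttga
In Sec24d the core lies at 123267470 to 123267477, before the RefSeq start at 123267496 but behind the GENCODE M21 start, which is 41 bases further upstream. In Sec23a it lies at 59012004 to 59012011, just inside the transcript, whose start at 59012017 is the same in both annotations. A match of letters is a description and shows no binding. Sec24a, with the next largest change after Sec24d, held TGACGT at 2 places and neither the core nor CCACGT in its window. Sec24b, which did not pass, held CCACGT at 1 place. Their windows follow the RefSeq starts, 51756834 for Sec24a and 130060907 for Sec24b. The GENCODE M21 bounds are 51763634 and 130061553, and no window of either gene was set there.

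The outer cage had smaller folds than the Sec23 genes, a difference that was likewise not tested. Sec31a (ENSMUSG00000035325, chromosome 5, 100361649 to 100416234), which forms the rods of the cage, measured 28.0, 30.3, 34.2 and 33.2 FPKM in replicates 1 to 4 of the IL-10+ cells, against 22.1, 22.1, 26.3 and 26.5 FPKM in the same replicates of the IL-10- cells. The groups did not overlap. Its log2 change was 0.36 (SE 0.0935, adjusted p = 0.0277; 4.22e-04 with the block). Without the block the call ended when IL-10+ replicate 2, 3 or 4 or IL-10- replicate 1 or 2 was left out (adjusted p of 0.0590 to 0.0821).

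Sec13 (ENSMUSG00000030298, chromosome 6, 113728062 to 113740743), the other cage subunit, measured 35.3, 41.0, 49.4 and 48.5 FPKM in replicates 1 to 4 of the IL-10+ cells, against 25.0, 35.1, 39.8 and 38.9 FPKM in the same replicates of the IL-10- cells. The groups overlapped, since IL-10+ replicate 1 lay below IL-10- replicates 3 and 4, yet within each replicate number the IL-10+ library was higher by 1.17-fold to 1.41-fold. The log2 change was 0.33 (SE 0.164, adjusted p = 0.206), and with the block it passed (SE 0.0462, adjusted p = 0.00240).

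Set against the Sec23 part of the inner coat, Sec31a and summed Sar1 were lower in IL-10+ cells. A quotient of either over summed Sec24 was not formed. The quotient of Sec31a over summed Sec23 was 0.758 to 0.806 with IL-10 but 0.971 to 1.14 without. That of summed Sar1 over summed Sec23 was 2.73 to 3.10 with IL-10 but 3.74 to 4.35 without. Neither overlapped between the groups, whereas Sec13 over Sec31a did (1.26 to 1.46 against 1.13 to 1.58). Like the sums, these were described and not tested.

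Sec13 also belongs to assemblies outside the coat. It is part of GATOR2, a regulator of the growth kinase mTORC1, and of the Y complex of the nuclear pore. Of 4 other GATOR2 genes none passed without the block, nor did any of 8 other Y complex genes, and the median log2 changes were -0.02 and -0.15. Seh1l, which sits in both assemblies, stood at 30.7 ± 3.43 against 35.4 ± 4.67 FPKM (log2 change -0.20, adjusted p = 0.269), and Nup85 at 48.8 ± 7.24 against 54.4 ± 7.34 FPKM (log2 change -0.16, adjusted p = 0.468; SD, n = 4). With the block 1 of 4 GATOR2 genes fell, Seh1l (adjusted p = 0.00209), which was counted with GATOR2 only. In that fit 5 of 8 Y complex genes fell, among them Nup85 (adjusted p = 0.00580). No gene of either list rose, and 33.3% of all tested genes fell in that fit.

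Genes that act around the coat were taken from lists of named factors. Of 10 tested genes of exit site assembly 4 rose and 1 fell, with a median log2 change of 0.33. Of all tested genes 10.6% rose and 9.18% fell. Preb, the exchange factor that loads Sar1 with GTP, ranged from 26.5 to 30.1 FPKM in IL-10+ libraries, all above the 14.9 to 18.3 FPKM of the others, 1.72-fold (adjusted p = 3.01e-04). Sec16a, the scaffold of exit sites, was 1.54-fold higher, Mia3, which adapts the coat to large cargo such as collagen, 1.44-fold, and Tfg 1.29-fold. Pdcd6, a calcium sensor that binds Sec31a, was the one that fell, to 22.1 ± 1.15 FPKM (SD, n = 4), 1.22-fold lower than without IL-10 (adjusted p = 0.0474). Sec31b, the paralog of Sec31a, stayed at 0.175 to 0.488 FPKM in all libraries and Sec16b at 0.0396 to 0.198 FPKM, below the level needed for a test.

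Cargo receptors and the factors that dock the vesicles were counted in the same way. Of 19 cargo receptor genes 11 rose and 0 fell; the list's median change was 0.35 on the log2 scale. Lman1, a lectin that carries glycoproteins out of the endoplasmic reticulum, rose from 21.8 ± 3.16 to 52.9 ± 4.30 FPKM (2.42-fold, adjusted p = 1.05e-04), and its partner Mcfd2 rose 1.56-fold. Surf4, a receptor for soluble cargo, rose from 65.4 ± 6.69 to 129.1 ± 12.3 FPKM (SD, n = 4). Tmed9 and Ergic1 rose 1.69-fold each. Of 16 tethers and SNARE genes, which make vesicles attach to and fuse with the next compartment, 8 rose and 1 fell. The SNAREs Stx5a and Bet1 rose 2.08-fold and 2.03-fold and the tether Uso1 1.87-fold. Trappc5 fell from 12.8 ± 1.56 to 7.27 ± 1.11 FPKM (log2 change -0.74, adjusted p = 0.00228). These counts stand beside 10.6% of the tested genes that rose and 9.18% that fell, and no test of the lists was made.

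**Figure D4:**
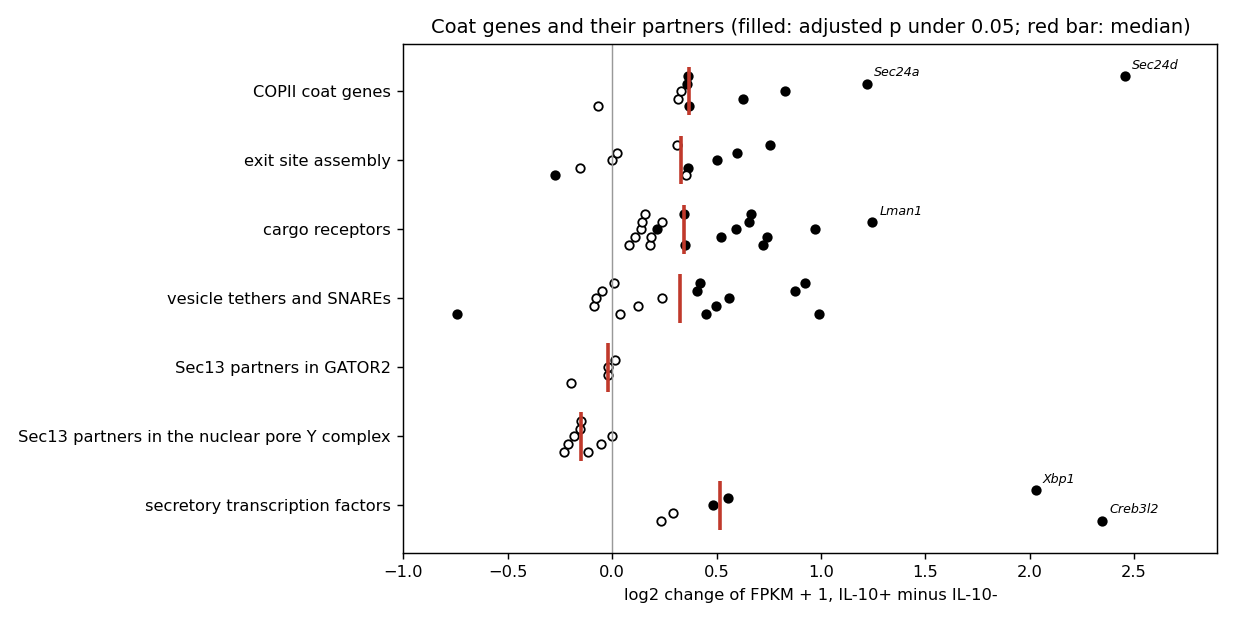
log2 change of FPKM + 1 (IL-10+ minus IL-10-) of each tested gene in the coat and in 6 lists of partners and regulators; filled points passed an adjusted p of 0.05 without the replicate block, red bars mark the list medians, and the vertical offset within a list carries no meaning. Coat genes have a median of 0.37, GATOR2 and Y complex partners of Sec13 lie around 0 or below.

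Several transcription factors known to act on secretory pathway genes rose. Creb3l2 (BBF2H7) is known in cartilage as an activator of Sec23a, and Xbp1 is the unfolded protein response factor that plasma cells need. Creb3l2 gave 18.8, 15.7, 17.6 and 17.3 FPKM in IL-10+ replicates 1 to 4, against 2.16, 2.09, 3.30 and 3.00 FPKM in the same IL-10- replicates, a 6.58-fold ratio of means (adjusted p = 1.46e-05). Xbp1 gave 183 to 199.9 FPKM in IL-10+ replicates 1 to 3 and 172.1 in replicate 4, against 34.8, 40.2, 58.8 and 50.6 FPKM in IL-10- replicates 1 to 4 (4.07-fold). In neither gene did the groups overlap. Creb3 rose 1.54-fold and Atf6b 1.40-fold, so that 4 of 6 tested genes of the list rose, against 10.6% of all tested genes. Atf6 (log2 change 0.23, adjusted p = 0.245) and Atf4 (log2 change 0.29, adjusted p = 0.211) did not pass without the block and did with it (adjusted p of 8.27e-04 and 0.00572). With the block 53.7% of all tested genes passed, 20.4% as higher. Creb3l1, Creb3l3 and Creb3l4 were at most 0.492 FPKM in any library.

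Ordered by mean FPKM, the IL-10+ cells had Sar1b, Sec24c, Sar1a, Sec13, Sec31a, Sec23b, Sec24d, Sec24b, Sec24a and Sec23a. The library ranges of Sec24c, Sar1a and Sec13 overlapped, as did those of Sec31a, Sec23b and Sec24d, and no other neighbours did. The IL-10- order was Sar1b, Sec24c, Sar1a, Sec13, Sec31a, Sec24b, Sec23b, Sec23a, Sec24a and Sec24d. There the ranges of Sec24c, Sar1a and Sec13 overlapped, and of these only Sec13 overlapped Sec31a. Sec24b overlapped Sec23b, and Sec24a overlapped Sec24d. Sec24d (2.56 to 6.69 FPKM) also spanned the range of Sec23a (5.76 to 6.44 FPKM). Sec24d thus stood 7th in the first order and 10th in the other.

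Profiles over the 8 libraries were compared by the root mean square distance of log2(FPKM + 1), each centred on its own mean, among tested genes other than immunoglobulin segments. Nearest to Sec24d were Fkbp11 (distance 0.128), Bhlha15 (0.137) and Hid1 (0.184), and the nearest coat gene, Sec24a, came 84th at 0.676. Close to Sec24c were Pigt (0.0509) and Slc35c1 (0.0512), and its nearest coat gene was Sec31a (0.0549). Nearest to Sar1b were Rap1a (0.0365), Ska3 (0.0493) and Arcn1 (0.0522), with Sar1a in 7th place (0.0621). Nearest to Sec23b were Spcs3 (0.0751), Fgf11 (0.0768) and Armcx2 (0.0772), and its paralog Sec23a came 129th (0.161). Fgf11 was low, with means of 2.31 FPKM with and 0.772 FPKM without IL-10, so that log2(FPKM + 1) understates its change.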

How the data were processed

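RNA of 8 libraries was profiled. The authors deposited FPKM values per gene, made with HISAT2 2.1.0, HTSeq 0.6.0 and build mm10 per the submitters' processing notes. No source used here gives the annotation, the strand setting or how shared reads were handled, which leaves overlapping genes and close paralogs uncertain. Groups and replicate numbers came from the titles, and columns were matched through the descriptions. Of 26589 identifiers 26517 were found in GENCODE M21. Multiplied by gene length and 1 library total, 93.4% to 93.6% of values above 0 gave whole reads within 0.05, which gave the depths. Libraries of a group differed by a chi-square per degree of freedom of 9.00 to 82.9, so none was a copy.

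Values of log2(FPKM + 1) entered limma 3.58.1 (R 4.3.3, variance trend) for the 11329 genes that reached 1 FPKM in 4 or more libraries; this scale understates changes of low genes. Calls take a Benjamini-Hochberg adjusted p under 0.05 over all tested genes. All 10 coat genes passed the filter. Folds are ratios of mean FPKM. Across genes, same-numbered libraries deviated from their group means together (r = 0.712, 0.583, 0.621 and 0.700). Each IL-10+ library matched best the IL-10- library of its own number. The numbers were therefore taken to pair the samples, from the data and not the labels. Calls are from the fit without the replicate block unless stated, and that fit leaves the pairing out. Alternatives were other pseudocounts, filters, scalings, the replicate block, no variance trend, leaving out each library, and replicates 1 and 2 or 3 and 4 alone. Members and lists were chosen with earlier results of these data known. Named were all members, up to 4 called genes of each list with the largest change (the most abundant where none passed), and the 3 genes nearest to 4 of the members; 1 gene near Sec24c and 1 marker gene are not reported here. Pdcd6, Mcfd2, Sec31b, Sec16b, Atf6, Atf4, single marker genes and the Creb3l genes below the filter were named after their values were seen. Promoter windows are RefSeq's on GRCm38.p6.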

Additional observations from a re-analysis of the deposited data

Results flagged for a closer look

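Each of 72 groups of 4 values (coat genes, paralog ratios and named partners) was examined for a library far from the other 3, which chance alone gives in about 1 of 20 groups. No coat gene or paralog ratio had one. Preb was low in IL-10+ replicate 2, at 26.5 FPKM against 29.5 to 30.1 in the other IL-10+ libraries (gap over range 0.837). Sec16a was low in the same library, at 25.7 against 27.4 to 27.6 FPKM (0.879). Lman1 was low in IL-10+ replicate 1, at 46.5 against 54.7 to 55.7 FPKM (0.893). Each of these values still lay above all 4 IL-10- values of its gene.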

How the results depend on the processing

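The 10 coat genes kept their direction under every alternative run, and Sec24d, Sec24a, Sec23a and Sec23b kept their calls in all of them. With 1 library left out, 4 to 7 coat genes and 1621 to 2055 of all genes passed. The count was 4 without IL-10+ replicate 3, IL-10+ replicate 4 or IL-10- replicate 2. Replicates 1 and 2 alone gave 4 coat genes and 1106 genes, replicates 3 and 4 alone 9 and 2647; the cause was not tested. With the replicate block 6083 genes passed (2312 higher, 3771 lower), 5622 when it was combined with median-of-ratios scaling and 5666 when scaled on all but immunoglobulin and mitochondrial genes, and 9 coat genes passed in each. Without a filter on low values 5 coat genes passed, since Sec31a (adjusted p = 0.0505) and Sar1b (0.0612) did not. Sar1a passed under that last scaling without the block (adjusted p = 0.0454). The block brought past the threshold Sec13, Sar1a, Seh1l, Nup85, Atf6, Atf4 and the marker genes Cd79a, Cd79b and Flt3. A pseudocount of 1 left 6 of the 8 paralog ratios past the threshold, as in the test without one. With 1 library left out, or with differences within replicate numbers, the exact test of a ratio cannot go below 0.0571 and 0.125, so only directions were read, and the 6 ratios that passed kept theirs. The lowest coat gene value rests on 453 reads.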

Other observations

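Over all genes, TGACGTGG was in 28 of 937 promoter windows (2.99%) of genes that rose in IL-10+ cells and in 90 of 9788 windows (0.919%) of all tested genes. The stress element was in 8 of 937 (0.854%) and 15 of 9788 (0.153%). The shorter patterns differed less, at 15.8% against 11.7% for CCACGT and 14.7% against 12.6% for TGACGT. These shares are descriptions and were not tested.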
